A study of Mus musculus with 6 samples.

Results

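miR-143 and miR-145 are processed from neighboring hairpins and are known as the miRNAs of vascular and visceral smooth muscle, where they favor the contractile state of the cell. Fibroblasts and pericytes, and in the liver the stellate cells that turn into collagen-producing myofibroblasts during fibrosis, also carry them, whereas hepatocytes hold little. In the mouse, the genes Mir143 and Mir145a lie within the span of the long noncoding RNA gene Carmn on chromosome 18, and a further copy, Mir145b, lies outside it (RefSeq, GRCm38.p6). Each hairpin gives a 5p and a 3p arm. The array entries for both arms of miR-143 and miR-145a were taken by name, which gave 4 of the 1247 mouse miRNAs on the array: mmu-miR-143-3p, mmu-miR-143-5p, mmu-miR-145a-5p and mmu-miR-145a-3p. Of these 4, only miR-143-3p was detected on all 6 arrays.

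Livers of male C57BL/6 mice were profiled, 1 array for each mouse. The 3 mice of the CCl4 group received intraperitoneal carbon tetrachloride, a hepatotoxin used to bring about liver fibrosis, at a dose of 0.6 mL/kg with corn oil as vehicle. The 3 controls were injected with the vehicle only. Treatment began when the mice were 7 weeks old, with 2 injections per week over 10 weeks, and livers were collected 48 h after the final dose. The signal of a miRNA is an intensity on a linear scale, summed over its probes after background subtraction, and each miRNA had 40 spots on every array.

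CCl4 replicate 3 stood apart from the other arrays, and for many values that depend on it the value without it is given too. It detected 334 miRNAs, against 245 and 227 on CCl4 replicates 1 and 2 and 186 to 193 on the corn oil arrays. The signal of miR-122-5p, the main hepatocyte miRNA, was 2158 there, compared with 13110 and 15544 for CCl4 replicates 1 and 2 and 17855, 16613 and 18345 for the controls. The arrays shared 1 slide, CCl4 in one row and corn oil in the other, so slide row and treatment cannot be told apart.

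miR-143-3p, the more abundant arm of miR-143 in most tissues, was measured in every liver. Its signal was 15.9, 14.4 and 17.5 on corn oil replicates 1, 2 and 3. In the CCl4-treated livers it was 49.5, 26.7 and 184 on replicates 1, 2 and 3. All CCl4 arrays lay above all corn oil arrays, replicate 3 by far the most and replicate 2 the least. Before scaling between arrays, such a separation with CCl4 higher was found for 105 of the 166 miRNAs detected on all arrays, 63.3%, and is thus no particular property of miR-143-3p. On the same unscaled values, the median difference between the groups over these 166 miRNAs was 0.99 on the log2 scale, and that of miR-143-3p was 1.97.

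Most spots behind these signals were bright enough to be read in both groups. Of the 40 spots, 82.5%, 75% and 85.0% passed the scanner's limit for well above background in the corn oil livers, and 100% in each CCl4-treated liver. The median spot was at 27.9, 24.8 and 30.5 in the corn oil livers and at 89.5, 50.3 and 244 in the CCl4-treated livers. Spots were compared within each of the 2 probes of miR-143-3p, with 20 spots each. All spots that failed the limit were of the dimmer probe, of which 13, 10 and 14 spots passed on corn oil replicates 1, 2 and 3. For the dimmer probe, the brightest corn oil spot was at 39.8, and the dimmest spots of CCl4 replicates 1 and 2 were at 59.2 and 30.0. For the brighter probe, the corresponding spots were at 54.6, 98.5 and 50.2. On both probes, spots of replicate 2 therefore overlapped those of the corn oil arrays, and those of replicates 1 and 3 did not.

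miR-143-3p was read by 2 probes with 20 spots each, which gave the same picture. The dimmer probe had a signal of 6.00, 5.55 and 7.01 in the corn oil livers and of 19.4, 10.6 and 74.7 in the CCl4-treated livers. The brighter probe had a signal of 9.92, 8.84 and 10.5 in the corn oil livers and of 30.1, 16.0 and 110 in the CCl4-treated livers. Both probes placed the CCl4 livers in the same order. Relative to the corn oil mean, the log2 values of the dimmer probe were 1.66, 0.78 and 3.60 on CCl4 replicates 1, 2 and 3, and those of the brighter probe were 1.63, 0.72 and 3.49.

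**Figure D1:**
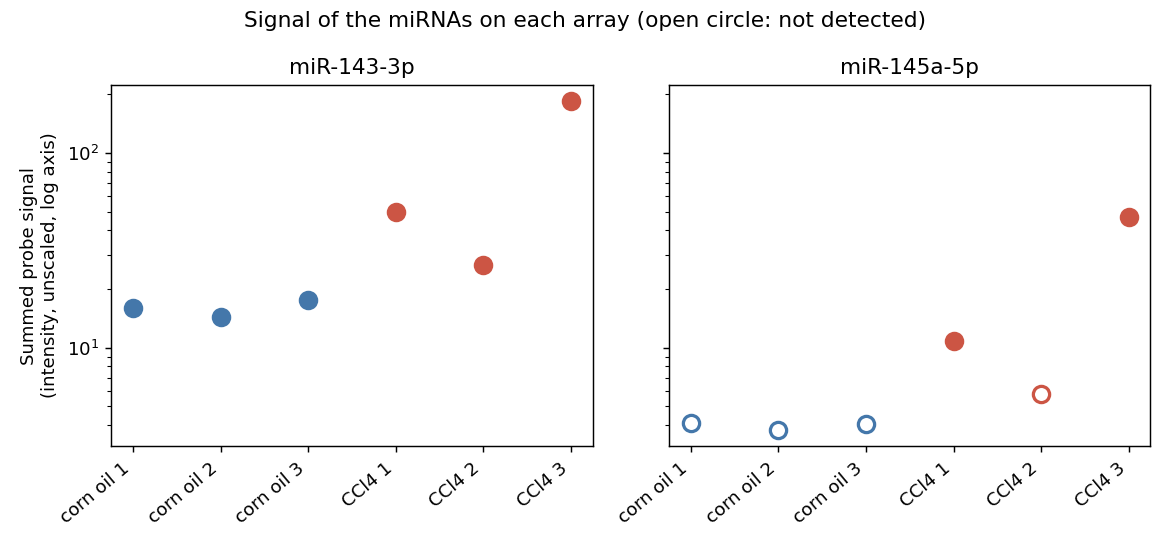
Summed probe signal of miR-143-3p (left) and miR-145a-5p (right) on each of the 6 arrays, an unscaled intensity on a log axis, with corn oil in blue and CCl4 in red; filled circles were detected and open circles were not. For miR-143-3p the corn oil arrays sit between 14.4 and 17.5 and the CCl4 arrays between 26.7 and 184, and miR-145a-5p was detected on CCl4 replicates 1 and 3 alone.

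To ask whether miR-143-3p differed with treatment once arrays were made comparable, the signals of the 166 miRNAs were log2 transformed and quantile normalized, so that all arrays share 1 distribution, and fitted with limma. miR-143-3p was then at 4.57, 4.49 and 4.72 in the corn oil livers and at 5.32, 4.72 and 5.77 in the CCl4-treated livers. CCl4 replicate 2 now had the same value as corn oil replicate 3, so the groups touched. Of the 166 miRNAs, 24 were higher on all CCl4 arrays than on all corn oil arrays after this step, 14.5%, and miR-143-3p was not among them. The mean was 4.59 ± 0.12 (SD, n = 3) in the corn oil group and 5.27 ± 0.53 (SD, n = 3) in the CCl4 group.

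The log2 fold change of miR-143-3p, CCl4 over corn oil, was 0.68 (standard error 0.29, limma adjusted p = 0.18), or 1.60-fold. To be called, a miRNA needed a fold change over 2 and an adjusted p (Benjamini-Hochberg, over the 166 miRNAs) under 0.05, and miR-143-3p met neither condition. This rule called 20 of the 166 miRNAs, 12.0%, and 0 of the 4 arms of miR-143 and miR-145a, of which 3 had no value in the fit. The difference was larger than the SD of either group, but the spread among the CCl4-treated livers was several times that among the controls. An exact two-sided permutation test of 3 livers against 3 gave p = 0.2 for the quantile-normalized values and p = 0.1 both for the unscaled values and for those scaled to the 75th percentile. The smallest p that this test allows is 0.1, so it cannot pass 0.05 here. Within the whole set, 30 of the 166 miRNAs had a larger positive change than miR-143-3p, and the median change was -0.14.

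The size of the difference followed the scaling, and its direction did not. After scaling to the 75th percentile of each array, miR-143-3p was at 4.53, 4.49 and 4.69 in the corn oil livers and at 5.40, 4.84 and 5.92 in the CCl4-treated livers. The groups were separate on this scale, as were those of 27 of the 166 miRNAs in the same direction, 16.3%, and the change was 0.82 (limma adjusted p = 0.13). Without normalization the change was 1.97 (adjusted p = 0.10), and with the arrays scaled to their spike-in RNAs it was 1.67 (adjusted p = 0.13). Background correction by normexp, with an offset of 50 added to each spot, gave the smallest change, 0.35 (adjusted p = 0.22). Such an offset shrinks the changes of dim miRNAs, and the median spot of miR-143-3p was at 24.8 to 30.5 on the corn oil arrays. The parts of the correction and of the offset were not tested apart. Set against the median of all 166 miRNAs, the change was 0.82 after quantile normalization and 0.98 both without normalization and after scaling to the 75th percentile. Without CCl4 replicate 3 this excess was 0.53 after quantile normalization and 0.74 without normalization. Spike-in scaling and normexp correction were run with all arrays only.

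The livers contributed unequally. Without CCl4 replicate 3 the change of miR-143-3p after quantile normalization was 0.41 (adjusted p = 0.19), and without CCl4 replicate 2 it was 0.94 (adjusted p = 0.047), still under 2-fold. On unscaled values, miR-143-3p exceeded its corn oil mean by 1.64, 0.75 and 3.53 on the log2 scale on CCl4 replicates 1, 2 and 3. The median of the 166 miRNAs exceeded its own by 0.55, 0.35 and 2.05 on the same arrays. The excess of miR-143-3p over that median was thus 1.09, 0.40 and 1.48, positive in each of the 3 livers and smallest in replicate 2. On replicates 1, 2 and 3, 28, 50 and 23 miRNAs exceeded their corn oil mean by more than miR-143-3p did.

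One of the 19 alternative ways of processing called miR-143-3p. It combined unscaled values with the omission of CCl4 replicate 3, a pairing chosen after the values of that array had been seen, and gave a change of 1.19 (limma adjusted p = 0.018). In that setting 41 of the 166 miRNAs were called, all of them higher, and the median change was 0.45. The adjusted p of miR-143-3p ranged from 0.018 to 0.97 over the 19 alternatives, all of which gave a higher mean in the CCl4 group.

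**Figure D2:**
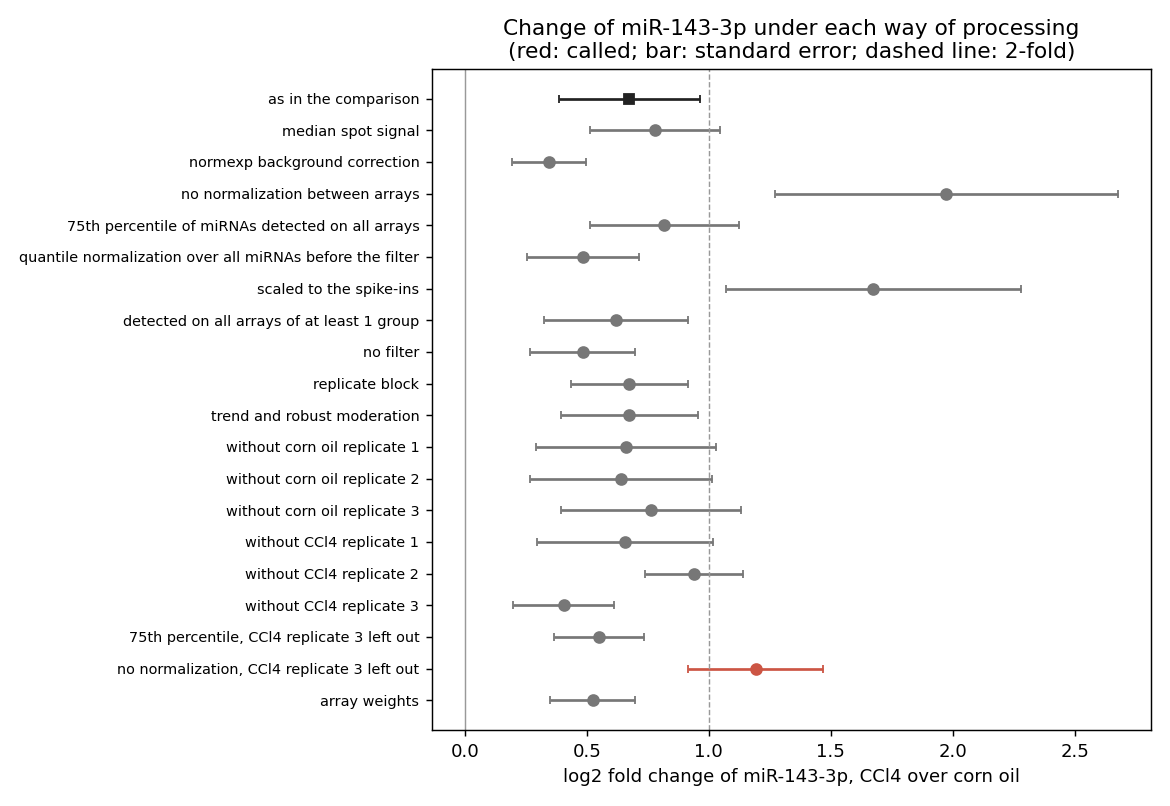
Log2 fold change of miR-143-3p, CCl4 over corn oil, with its standard error, for the comparison as reported (black square) and 19 alternative ways of processing (circles, red where called); the dashed line marks 2-fold. All values lie above 0, between 0.35 and 1.97, and the called one is the setting without normalization and without CCl4 replicate 3.

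miR-145a-5p, the main arm of miR-145 and the one best known for repressing regulators of the undifferentiated smooth muscle cell, was near the limit of the array. It was detected on CCl4 replicate 1 with a signal of 10.8 and on CCl4 replicate 3 with a signal of 46.8. It was not detected on CCl4 replicate 2 or on any corn oil array. On CCl4 replicate 1, 16 of its 40 spots were well above background and on replicate 3 all 40 were, whereas on the other 4 arrays none was.

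Below the detection limit, the probe signals of miR-145a-5p can be listed but not read as levels. Summed over its 2 probes they were 4.11, 3.78 and 4.06 in the corn oil livers and 10.8, 5.80 and 46.8 in the CCl4-treated livers. Among miRNAs with over 50% of their spots well above background, the lowest signal in the corn oil livers was 10.4 to 11.3, above the signals of miR-145a-5p there. After scaling to the 75th percentile, the CCl4 mean of miR-145a-5p was 3.26 and this floor was 3.99 on the log2 scale, so that no fold is given.

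The passenger arms were not detected in any liver. For miR-143-5p no spot was well above background on any array, and its summed probe signal was at most 0.05 in the corn oil livers and 0.57, -0.34 and 2.60 on CCl4 replicates 1, 2 and 3. For miR-145a-3p the summed probe signal was 0.61, 0.34 and 0.16 in the corn oil livers and -0.11, -0.0020 and 0.85 in the CCl4-treated livers, with a single spot well above background on corn oil replicates 1 and 3 each. No comparison was made for either arm.

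Other miRNAs of smooth muscle and fibroblasts were set beside the cluster. Of 10 such miRNAs, 6 were detected on all arrays, and all 6 were higher on every CCl4 array than on every corn oil array before scaling, as were 63.3% of the 166 miRNAs. After quantile normalization, 2 of the 6 were called higher and 0 lower, beside 12.0% of the 166 miRNAs called in either direction. The median change of the 6 was 1.08, against -0.14 for all 166 miRNAs. The largest changes were those of a single family, with miR-199a-3p at 1.28, miR-199a-5p at 1.34 and miR-199b-5p at 2.28. The rest were miR-125b-5p at 0.88, miR-152-3p at 0.18 and miR-100-5p at -0.01. Without CCl4 replicate 3 the median was 0.87, with 4 of the 6 changes positive and miR-152-3p and miR-100-5p at -0.22 and -0.15.

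The called pair belongs to the miR-199 family, which stellate cells and fibroblasts carry. miR-199b-5p rose by 2.28 on the log2 scale (limma adjusted p = 0.016), with signals of 10.4, 7.11 and 11.3 in the corn oil livers and of 125, 40.8 and 268 in the CCl4-treated livers. miR-199a-5p rose by 1.34 (adjusted p = 0.032), with signals of 12.0, 10.5 and 16.6 in the corn oil livers and of 90.6, 38.5 and 143.1 in the CCl4-treated livers. Both were dim in the corn oil group, where no array had over 52.5% of their spots well above background, so the size of these changes is uncertain. Both were called without CCl4 replicate 3 as well, with changes of 2.08 and 1.35. Leaving out CCl4 replicate 1 or any single corn oil array ended both calls. The changes were then 2.03 to 2.41 for miR-199b-5p and 1.11 to 1.53 for miR-199a-5p. Both calls also ended with normexp correction and its offset of 50, at 0.87 and 0.47, and with no detection filter, at 2.01 and 1.09. miR-199a-5p alone also lost its call with median spot signals, at 1.19, and with normalization before the filter, at 1.09. For these miRNAs too, CCl4 replicate 2 had the lowest signal of the CCl4 group. miR-199a-3p, of the same family and with all spots well above background on every array, was not called, with a change of 1.28 (limma adjusted p = 0.059). Whether the changes of this family differ from that of miR-143-3p was not tested.

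miR-125b-5p, with the highest mean signal of the 10 over the 6 arrays, had signals of 165, 156 and 210 in the corn oil livers and of 447, 255 and 2730 in the CCl4-treated livers. Its change was 0.88 (limma adjusted p = 0.27), and 0.39 without CCl4 replicate 3, so it was not called. miR-10b-5p and miR-218-5p, by contrast, had a detected signal on CCl4 replicate 3 and no other array, at 715 and 154, and miR-214-5p on no array. miR-214-3p, from the same transcript as a miR-199a hairpin, was detected on corn oil replicate 3 at 5.21 and in the CCl4-treated livers at 43.4, 17.4 and 59.7. Summed over the 10 miRNAs, the detected signal was 294, 263 and 366 in the corn oil livers and 1146, 567 and 5117 in the CCl4-treated livers.

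Markers of striated muscle were not detected. All 7 miRNAs of this list, with miR-1a-3p and miR-133a-3p as its defining members, were detected on 0 of the 6 arrays, CCl4 replicate 3 included. Their summed detected signal was 0 on each array.

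Markers of the other liver cells moved between the livers as well, and their part in the signal of miR-143-3p was not tested. In whole liver RNA, a larger number of cells that carry a miRNA and more of it in each cell cannot be told apart. Of 7 hepatocyte miRNAs, 6 were detected on all arrays and 0 were called, with a median change of -1.65, or -0.64 without CCl4 replicate 3. In the fit without that array, miR-101b-3p was called lower, with a change of -1.20 (limma adjusted p = 1.8e-03). Their summed signal was 20667, 19132 and 21051 in the corn oil livers and 15134, 17911 and 3111 in the CCl4-treated livers. miR-122-5p, the most abundant of the list by its mean over the 6 arrays, had a change of -1.49 (limma adjusted p = 0.47). Without CCl4 replicate 3 quantile normalization fixed its change at 0.00, since it held the same rank on the other arrays, whereas scaling to the 75th percentile gave -0.94. The array with the highest signal of miR-143-3p was the one with the lowest summed hepatocyte signal, most of which is miR-122-5p. miR-101a-3p of the same list was instead highest there, at 297 against 64.3 to 74.6 on the other arrays.

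Of 7 leukocyte miRNAs, 4 were detected on all arrays and 0 were called, with a median change of 0.69, or 0.92 without CCl4 replicate 3. Their summed signal was 118, 101 and 119 in the corn oil livers and 577, 429 and 694 in the CCl4-treated livers. miR-223-3p of myeloid cells, with the highest mean signal of the list over the 6 arrays, though under miR-142-3p on each corn oil array and under miR-342-3p on CCl4 replicate 3, had a change of 1.18 (limma adjusted p = 0.18) and was not called. Leaving out CCl4 replicate 3, it was called with a change of 1.75 (limma adjusted p = 1.8e-03). With all arrays it was also called without normalization, at 2.54 (limma adjusted p = 4.1e-03), and with scaling to the spike-in RNAs, at 2.24 (limma adjusted p = 7.8e-03). Array weights called it too, at 1.71 (limma adjusted p = 7.6e-04). They gave CCl4 replicate 3 a weight of 0.036, against 0.86 to 3.20 for the other arrays, and so nearly left it out. miR-342-3p had a change of 0.85 (limma adjusted p = 0.014), under the 2-fold of a call, and with all arrays it was called after scaling to the 75th percentile, at 1.11 (limma adjusted p = 0.016), with scaling to the spike-in RNAs, at 1.96, and without normalization, at 2.26. Unlike miR-143-3p, miR-223-3p was not highest on replicate 3, with signals of 223, 170 and 191 in the CCl4-treated livers and of 34.2, 30.1 and 35.8 on the corn oil arrays.

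Both arms of miR-126, the endothelial miRNA, were detected on all arrays, and 0 of the 2 were called. miR-126-3p, the more abundant, had signals of 646, 553 and 665 in the corn oil livers and of 806, 808 and 3675 in the CCl4-treated livers. Its change was 0.32 (limma adjusted p = 0.43) after quantile normalization and -0.04 after scaling to the 75th percentile, so its direction followed the scaling. Without CCl4 replicate 3 these were 0.09 and -0.26. The median change of the pair was 0.13, or -0.08 without CCl4 replicate 3. The summed endothelial signal was 658, 563 and 677 in the corn oil livers and 824, 821 and 3732 in the CCl4-treated livers.

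Of 4 red cell miRNAs, 3 were on the array, 2 were detected on all arrays and 0 were called, with a median change of -0.55, or -0.72 without CCl4 replicate 3. Without normalization and with all arrays the direction turned, with changes of 0.32 for miR-451a and 0.76 for miR-144-3p. These values rest largely on CCl4 replicate 3, where both signals were highest, at 2050 and 84.6. Over CCl4 replicates 1 and 2 alone, the unscaled mean of miR-451a was under that of the corn oil arrays. Scaling to the 75th percentile without replicate 3 gave -1.04 for miR-451a and -0.57 for miR-144-3p. miR-451a, with the highest mean signal, had signals of 452, 728 and 680 in the corn oil livers and of 699, 302 and 2050 in the CCl4-treated livers. Their summed signal was 466, 754 and 700 in the corn oil livers and 730, 315 and 2144 in the CCl4-treated livers. The red cell signal was lowest on CCl4 replicate 2, the CCl4 array with the least miR-143-3p.

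Of 6 miRNAs of biliary and other epithelium, 2 were detected on all arrays and 0 were called. No median is given, since 1 of the 2 was too dim for a fold. miR-200c-3p, miR-141-3p and miR-205-5p were detected on no array. miR-200b-3p, with the highest mean signal over the 6 arrays though under miR-200a-3p on corn oil replicate 3, had signals of 7.31, 5.64 and 17.6 in the corn oil livers and of 60.01, 11.7 and 9.46 in the CCl4-treated livers, and was too dim in the corn oil group for a fold. The summed signal was 13.6, 10.4 and 48.8 in the corn oil livers and 139, 25.1 and 16.9 in the CCl4-treated livers. It was highest on CCl4 replicate 1, unlike that of miR-143-3p.

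miRNAs often named in liver fibrosis were set beside miR-143-3p as well. miR-21a-5p, a miRNA induced by TGF-β signaling, had signals of 2735, 2721 and 2630 in the corn oil livers and of 4844, 4563 and 2768 in the CCl4-treated livers. Its change was -0.30 (limma adjusted p = 0.77), and 0.47 (limma adjusted p = 1.8e-03) without CCl4 replicate 3, under 2-fold. Scaling to the 75th percentile gave -0.61 with all arrays and 0.16 without that array. Without normalization the change was 0.55 with all arrays. Its direction thus rested on that array after either scaling, and with all arrays it also depended on whether arrays were scaled. miR-29a-3p and miR-29b-3p, which target collagen transcripts, had changes of 0.15 and 0.47 (limma adjusted p = 0.57 and 0.52). Scaling to the 75th percentile instead gave -0.21 and 0.24 with all arrays, and -0.48 and -0.19 without CCl4 replicate 3. Without that array quantile normalization fixed miR-29a-3p at no change, since its rank was the same on all others, and gave -0.05 for miR-29b-3p. None of the 3 was called.

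**Figure D3:**
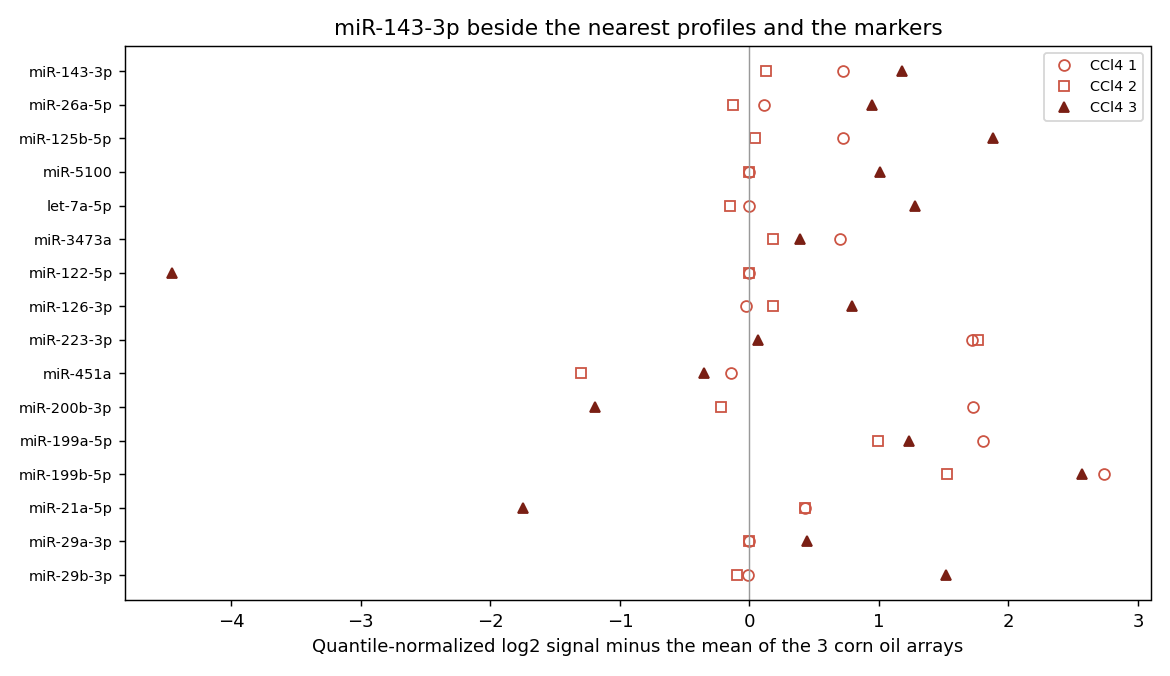
Quantile-normalized log2 signal on each CCl4 array minus the mean of the 3 corn oil arrays, for miR-143-3p, the 5 nearest profiles, the most abundant marker of each list with a value, the called markers and the miRNAs named in fibrosis; open circles, open squares and filled triangles stand for CCl4 replicates 1, 2 and 3. miR-143-3p lies at 0.72, 0.13 and 1.18, whereas miR-122-5p lies at -4.46 on replicate 3 and at 0 on replicates 1 and 2, where its rank was that of the corn oil arrays although its unscaled signal was lower.

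The profiles nearest to that of miR-143-3p were found by the root mean square difference over the 6 arrays of quantile-normalized log2 values, each centred on its own corn oil mean. The nearest of the 165 other miRNAs were miR-26a-5p at 0.29, miR-125b-5p at 0.29, miR-5100 at 0.31, let-7a-5p at 0.33 and miR-3473a at 0.33, against a median of 0.83. None of these 5 was called. On CCl4 replicates 1, 2 and 3, miR-143-3p was 0.72, 0.13 and 1.18 above its corn oil mean. miR-125b-5p, which shared the order of the livers, was 0.72, 0.04 and 1.88 above its own. miR-26a-5p, let-7a-5p and miR-5100 exceeded their corn oil means on CCl4 replicate 3, by 0.95, 1.28 and 1.00, while on replicates 1 and 2 they lay between -0.15 and 0.11. An unchanged rank fixed miR-5100 at 0 on both of these and let-7a-5p at 0 on replicate 1, so no absence of change can be read from that. Their group changes were 0.31, 0.38 and 0.33 after quantile normalization and -0.14, -0.18 and -0.97 after scaling to the 75th percentile, so that the direction followed the scaling. Without CCl4 replicate 3, scaling to the 75th percentile gave -0.45, -0.47 and -0.70. Quantile normalization then gave -0.01 for miR-26a-5p and -0.06 for let-7a-5p. miR-26a-5p, let-7a-5p and miR-5100 were near to miR-143-3p on replicate 3 and below it on replicates 1 and 2.

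The ranking depended on the scaling, and 1 of the 5, miR-125b-5p, was also among the 5 nearest after scaling to the 75th percentile. On that scale miR-26a-5p, miR-5100, let-7a-5p and miR-3473a ranked 52, 137, 54 and 17 of the 165. miR-3473a was dim, and no array had over 50% of its spots well above background. To show whether the near profiles share a seed, the part of a miRNA that pairs with its targets, the mature sequences of the 5 are given from the RefSeq table of GRCm38.p6, in which all 5 matched by name, with the seed, bases 2 to 8, in capitals. The 5 seeds differ from one another.
miR-26a-5p: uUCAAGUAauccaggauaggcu
miR-125b-5p: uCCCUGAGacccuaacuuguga
miR-5100: uCGAAUCCcagcggugccucu
let-7a-5p: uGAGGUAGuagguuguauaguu
miR-3473a: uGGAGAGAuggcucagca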

How the data were processed

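Total liver RNA labeled with Cy3 was hybridized to 1-color mouse miRNA arrays. The authors deposited the scanner output of Feature Extraction 11.0.1.1, with each miRNA's intensity given after background subtraction, in linear units and without any scaling across arrays. It gives 0.1 for an undetected miRNA. Groups came from the sample labels. As in the methods of the study, miRNAs with a detection flag on all 6 arrays (166 of 1247) were log2 transformed and quantile normalized. Treatment was the single term of a limma model (version 3.58.1, R 4.3.3, lmFit and eBayes). The fit was run on simulated data with independent noise, equal spread in both groups, no normalization step and planted changes larger than that of miR-143-3p. It was thus not tested for unequal spread or an outlying array such as CCl4 replicate 3. Tables and plots used Python 3.11.15, numpy 2.4.6, pandas 2.3.3 and matplotlib 3.10.9. The array entries and marker lists were chosen with earlier results of these data known. Named are the entries for both miRNAs, the 5 nearest profiles, the most abundant and all called members of each list, miR-122-5p, miR-21a-5p, miR-29a-3p and miR-29b-3p; other names were chosen after their values were seen. Where no array of a group had over 50% of a miRNA's spots well above background, its level there was bounded, on each array, by its own signal or, if higher, by that of the dimmest miRNA past this limit. Alternatives covered the spot summary, background, normalization, filter, moderation, the replicate number as a block and each array left out. Added after the values were seen were 2 other scalings without CCl4 replicate 3, and array weights. The authors' normalized table holds fewer miRNAs than passed this filter, none of the 4 entries among them, and was not used. The number of arrays, 3 per group, limits the precision. The scanner files and the RefSeq table are of different builds, so no coordinates are given.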

Additional observations from a re-analysis of the deposited data

Results flagged for a closer look

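miR-145a-5p had no value in the comparison of the groups because it was not detected on all arrays, but the scanner output holds a detected signal of it in CCl4-treated livers and in no control liver. It was 46.8 on CCl4 replicate 3 and 10.8 on CCl4 replicate 1, while the miRNA was detected on 0 of the 3 corn oil arrays and not on CCl4 replicate 2. The 10.8 lies within 10.4 to 11.3, the range over the corn oil arrays of the lowest signal among miRNAs with over 50% of their spots well above background, and so is not shown to exceed the control level. Both arrays also had the highest signals of miR-143-3p, 49.5 and 184. CCl4 replicate 3 detected 334 miRNAs, more than any other array, and the part of this in its signal of miR-145a-5p was not tested.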

How the results depend on the processing

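The change of miR-143-3p was recomputed in 16 other ways of processing and 3 more added after the values were seen. All 19 gave a higher mean in the CCl4 group. The 16 kept miR-143-3p outside the call, with changes of 0.35 to 1.97 over the 10 that used all arrays and of 0.41 to 0.94 with 1 array left out. Of the 3 added, the setting without normalization and without CCl4 replicate 3 called it (1.19), and the other 2, the 75th percentile without that array (0.55) and array weights (0.52), left it under 2-fold with adjusted p of 0.038 and 0.049 (range over all alternatives 0.018 to 0.97). miR-143-5p, miR-145a-5p and miR-145a-3p had no value in the fit; with no filter, undetected signals were set to the lowest detected signal of the array, which leaves no fold to give, and none of them was called (limma adjusted p = 0.98 for miR-145a-5p). The 75th percentile over all miRNAs was not run, since it fell on the value for undetected miRNAs, 0.1, on 5 of the arrays.

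The count of called miRNAs, 20 with 12 higher, varied more. It was 4 with normexp and its offset of 50, and 11 with normalization before the filter. Detection in at least 1 group gave 32 of 215, and no filter gave 5 of 1247. Array weights gave 31, and the setting without normalization and without CCl4 replicate 3 gave 41. With no filter, 886 miRNAs had the same value on all arrays; they were counted as unchanged and stayed in the adjustment. With 1 array left out the count was 5 to 28, 5 without corn oil replicate 2 or CCl4 replicate 1, 6 and 7 without corn oil replicates 3 and 1, and 28 without CCl4 replicate 3. Without normalization or with spike-ins all 18 calls were higher. The cause was not tested. With the replicate number as a block, 6 miRNAs were called and the change of miR-143-3p was 0.68 (limma adjusted p = 0.19); the pairs' deviations correlated at -0.18, 0.11 and 0.03, so the numbers do not pair the livers. With this block miR-199a-5p lost its call (adjusted p = 0.090). Dim spots limit miR-143-5p, miR-145a-5p and miR-145a-3p, each without a detected signal on the corn oil arrays.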
